A study of Homo sapiens with 3 samples.

Results

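The genes described here are 65 human genes whose signal in HepG2 cells was higher at 100 μM etoposide than in both control cells and cells at 10 μM etoposide. They were chosen from 12114 genes that had a RefSeq mRNA accession (NM_) and a signal well above background on all arrays. The brightest probe stood for its gene, and its log2 signal was taken relative to the 75th percentile of the array over all probes. A gene was kept when its log2 signal at 100 μM exceeded that of the control by more than 1.3 and that at 10 μM by more than 1. SLC10A1 and names that start with CYP, ZNF or KRT were left out, which removed 1 gene, ZNF224, with signals of 88.7 on the control array, 61.7 on the 10 μM array and 252 on the 100 μM array. Before that, 66 genes (0.545%) had passed, and the 65 genes are 0.537% of those that could have been chosen. Because the values themselves chose the genes, the differences below are a description of the arrays and carry no test.

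HepG2 is an established line of human hepatocarcinoma cells. The control cells are labelled untreated, while the study's own table of fold changes names its control DMSO, the vehicle. The other cells were given etoposide at 10 μM (the low dose) or 100 μM (the high dose) for 30 h, and their total RNA was labeled with Cy3 after amplification and measured on 1-color Agilent arrays. There was 1 array, and so 1 culture, per condition, which means that a dose cannot be told apart from its culture or array, and no difference has a replicate check. The study set the low dose, as a condition of senescence, against the high dose, as a condition of apoptosis. In bulk RNA, fewer cells of a type and less RNA per cell cannot be told apart.

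Etoposide traps topoisomerase II on DNA and leaves double-strand breaks. The breaks activate p53, which drives genes of cell cycle arrest and of cell death, and heavy damage can carry a cell from arrest to apoptosis. HepG2 cells keep much of the secretory program of the hepatocyte, the cell that makes most plasma proteins, such as clotting factors, protease inhibitors and fibrinogen.

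Signals are spot intensities after subtraction of the background by the scanner software, not yet scaled between arrays, and differences are on the log2 scale after scaling. A signal depends on the probe as well as on the RNA, so signals are compared between arrays and not between genes. The 75th percentile lay at a signal of 514 for the control array, 537 for 10 μM and 432 for 100 μM, so scaling added 0.25 to the log2 difference between the high dose and control. Between 19836 and 20151 of the 34127 probes were well above background per array, and no spot was saturated. All 10 hepatocyte markers, among them AFP, APOA1 and SERPINA1, were well above background on all arrays, none of 4 keratinocyte markers was on any, and 1 of 6 fibroblast markers was on the control and low dose arrays only.

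**Figure D1:**
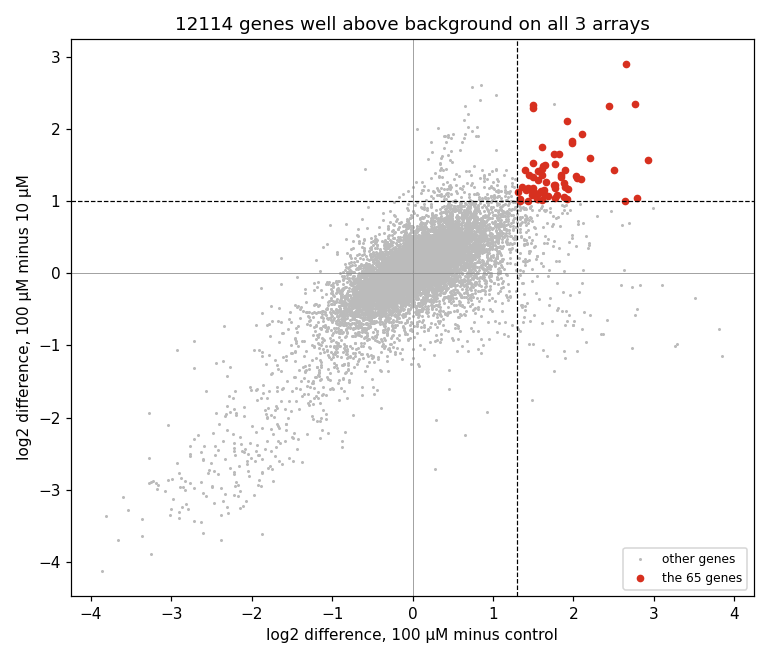
Each point is 1 of 12114 genes, with the log2 difference of the high dose from control on the x axis and of the high dose from the low dose on the y axis. Dashed lines mark the thresholds of 1.3 and 1, and the 65 red points are the genes described here, which reach 2.93 on the x axis and 2.90 on the y axis.

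Across the 65 genes, the median signal was 50.8 on the control array, 64.2 on the 10 μM array and 145 on the 100 μM array. Over all 12114 genes it was 616, 654 and 508. The median log2 difference of the high dose was 1.65 from control (range 1.3 to 2.93) and 1.27 from the low dose (range 1.0 to 2.90), beside medians of 0.05 and 0.06 over all genes. Singly, the threshold against control was passed by 274 genes (2.26%) and that against the low dose by 258 (2.13%). In the opposite direction, 289 genes (2.39%) were lower than control by more than 1.3 at the high dose.

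The genes were not all at the control value at the low dose. The difference of the low dose from control is fixed by the other 2 differences, so it is given as a description. Its median was 0.39, beside -0.02 over all genes, and it ran from -0.83 to 1.74. In 58 of the 65 genes the scaled log2 values were ordered control, low dose, high dose. The low dose was above control by more than 0.5 in 23 of them, beside 10.6% of all genes, and by more than 1 in 4, beside 2.74%. It was below control in 7, beside 52.8% of all genes, and by more than 0.5 in 2, beside 7.43%.

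Probes spotted 10 times on each array gave the spread between spots. On the control array, log2 signals of such spots varied with a median SD of 0.27 for signals of 20 to 50, 0.12 for 50 to 100 and 0.05 for 300 to 1000. For the 65 genes, the resulting SD of the difference between the high dose and control had a median of 0.18 and ran from 0.05 to 0.44. It covers spots of 1 array and not cultures or RNA preparations. By this measure the low dose was more than 2 SD above control in 30 genes, more than 2 SD below it in 3 and within 2 SD of it in 32. The same shares over all 12114 genes are not given here, so these counts are no result about the 65. Against the thresholds of the rule, 27 genes lay within 2 SD of 1.3 and 33 within 2 SD of 1, and 23 lay more than 2 SD above both.

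**Figure D2:**
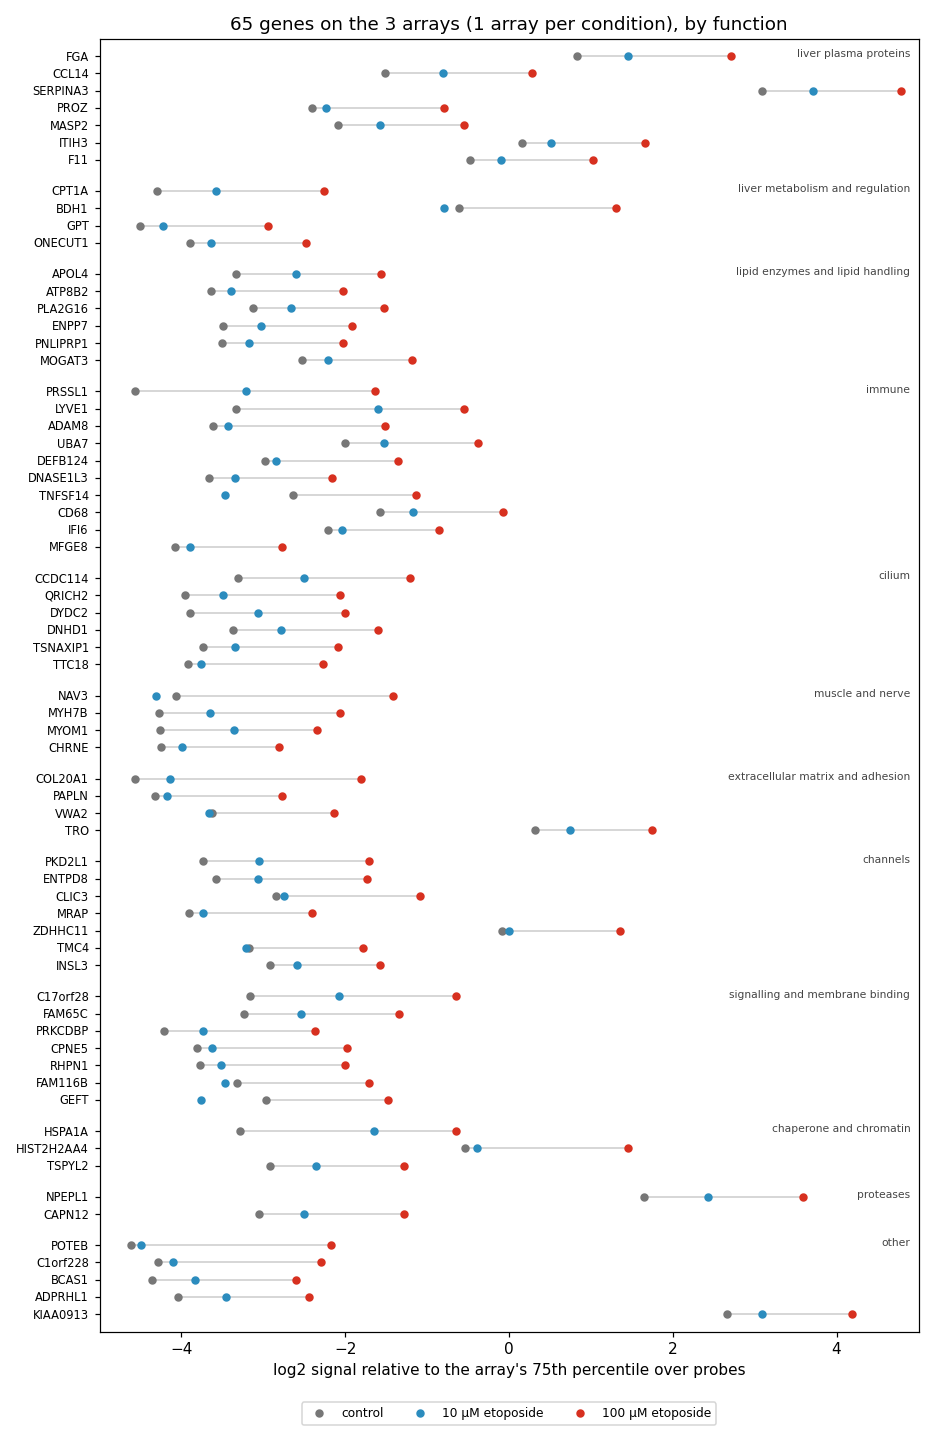
The log2 signal of each of the 65 genes relative to the array's 75th percentile (x axis) is shown for the control (gray), 10 μM (blue) and 100 μM (red) arrays, 1 array each, with genes grouped by function. The red point lies to the right in every row, while the blue point lies between the others in 58 rows and left of the gray point in 7.

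The genes were put into groups by what their proteins are known to do, after the genes were known, so the groups order the description and support nothing. Proteins that hepatocytes secrete into plasma made up 7 genes, with differences of 1.5 to 1.88 from control and of 1.02 to 1.45 from the low dose. SERPINA3 (NM_001085), the acute-phase protease inhibitor alpha-1-antichymotrypsin, had signals of 4387 (control), 7016 (10 μM) and 11907 (100 μM). Its differences were 1.69 (spot SD 0.07) from control and 1.08 from the low dose. FGA (NM_021871), the alpha chain of fibrinogen, had signals of 911, 1473 and 2826 in the same order of arrays, which is kept below, with differences of 1.88 (SD 0.07) and 1.25. In both genes the low dose lay between the control and the high dose.

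These 2 genes are measured by 3 probes each, of which 2 per gene are shown to make clear that the pattern was read at separate places of the transcript. Positions are on hg18, and the first line of FGA is the probe whose signals were given above.
FGA, chr4:155726698-155726757, minus strand: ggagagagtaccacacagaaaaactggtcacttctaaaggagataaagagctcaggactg
FGA, chr4:155728239-155729433, minus strand, across a splice junction: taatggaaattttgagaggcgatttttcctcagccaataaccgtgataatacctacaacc
SERPINA3, chr14:94158435-94158494, plus strand: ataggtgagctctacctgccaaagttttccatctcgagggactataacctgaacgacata
SERPINA3, chr14:94150936-94150995, plus strand: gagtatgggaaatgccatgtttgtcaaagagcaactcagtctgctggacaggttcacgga
The other FGA probe shown had signals of 422, 574 and 982, with differences of 1.47 from control and 1.09 from the low dose. The SERPINA3 probes shown had signals of 2197, 3483 and 5877 and of 759, 1222 and 2101, and differences from control of 1.67 and 1.72. Both genes thus passed both thresholds with every probe that was well above background.

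ITIH3, a heavy chain of the inter-alpha-trypsin inhibitor, had 575, 768 and 1366. F11, the zymogen of clotting factor XI, had 371, 503 and 879 with its brightest probe. Its other probe gave 65.2, 64.2 and 113, which is a difference of 1.04 from control, below the threshold, and of 1.12 from the low dose, above it. CCL14, a chemokine that circulates in plasma, had 179, 306 and 524, and MASP2, a protease of the lectin pathway of complement, had 121, 181 and 295. PROZ, a cofactor for the inhibition of factor Xa, had 97.3, 114 and 250. In 6 of the 7 genes the low dose was above control by more than 2 SD, beside 30 of the 65, PROZ being the exception.

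Genes that work with these proteins were looked up after the values were seen. The other 2 fibrinogen chains did not pass, FGB with signals of 633, 678 and 736 (difference from control 0.47) and FGG with 31046, 29112 and 39920 (0.61). The fibrinogen genes thus differed from each other in these signals, the alpha chain being the 1 that passed. SERPINA1, a related protease inhibitor, had a difference of 0.84. Of the other ITIH heavy chains, ITIH4 was nearest to the thresholds, with 1.06 from control and 1.28 from the low dose, whereas ITIH1 (0.68) and ITIH2 (0.44) were farther below. F10, the gene for factor X, had 1.25 and 0.81. PROC (0.16), PROS1 (0.06) and F2, prothrombin (0.33), lay nearer to their control values than F10 did. The 10 hepatocyte markers had a median difference of 0.49 at the high dose from control, beside 0.05 over all genes. Of the 10, 8 were above 0, and the share of all genes above 0 is not given here. The summed signal of the markers was 428275, 471113 and 487322. Their part in the result was not tested.

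Liver metabolism and its regulation gave 4 genes. BDH1, which interconverts the ketone bodies acetoacetate and beta-hydroxybutyrate, had signals of 338, 309 and 1072, with differences of 1.92 (SD 0.08) from control and 2.11 from the low dose. Its low dose signal was below control by 0.19, so the 2 doses lay on opposite sides of the control. CPT1A, which commits long-chain fatty acids to import into mitochondria, had 26.1, 44.9 and 90.3 for the transcript variant of accession NM_001031847. Its probe was spotted 10 times, and the SD between its own spots was 0.16 in control cells and 0.08 at the high dose. GPT, the alanine aminotransferase used as a serum marker of liver injury, had 22.7, 28.6 and 56.3, and ONECUT1, a liver transcription factor also named HNF6, had 34.6, 43.1 and 77.4. Of genes that work beside these, CPT2 had a difference from control of 0.28 and ONECUT2 of 0.33.

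Enzymes and carriers of lipids made up 6 genes, with differences from control of 1.34 to 1.77 and control signals of 41.2 to 89.2. PLA2G16, now named PLAAT3, a phospholipase and acyltransferase, was spotted 10 times and had 59.0, 84.5 and 150. MOGAT3, an acyltransferase of triacylglycerol synthesis, had 89.2, 116 and 190. The others were APOL4, an apolipoprotein L, ATP8B2, a lipid flippase, ENPP7, the alkaline sphingomyelinase of the gut, and PNLIPRP1, a relative of pancreatic lipase.

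A mixed group of 10 genes held proteins of immune cells, macrophages and lymphatic endothelium, and others, such as IFI6 and UBA7, that are linked to interferon. PRSSL1 (now PRSS57), a serine protease of neutrophil granules, had the largest difference from control, with signals of 21.7, 58.2 and 139 and a difference of 2.93 (SD 0.42). LYVE1, a hyaluronan receptor of lymphatic endothelium, had 50.8, 177 and 295, a difference of 2.79 (SD 0.17) from control. Both were already above control at the low dose, by 1.36 and 1.74. ADAM8, a membrane metalloprotease of leukocytes, had 42.0, 49.7 and 152, with 2.10 from control and 1.92 from the low dose. There the low dose was 0.18 above control, within 2 SD (0.26 per SD).

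TNFSF14, the TNF superfamily ligand also called LIGHT, stood apart from most of the genes in the position of the low dose. It had signals of 82.8, 48.6 and 197, so the low dose was 0.83 below control (SD 0.19) and the high dose 1.5 above it (SD 0.12). Its probe is the only 1 on the array with a RefSeq mRNA accession under this name and is shown for that reason.
TNFSF14, chr19:6615939-6615998, minus strand: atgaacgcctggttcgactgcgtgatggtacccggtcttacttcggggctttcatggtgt
TNFRSF14, a receptor of this ligand, had signals of 1009, 4425 and 3685, with differences from control of 2.07 at 10 μM and 2.12 at 100 μM. The receptor was thus higher at both doses, while the ligand was higher at the high dose and lower at the low dose. LTBR, the lymphotoxin beta receptor, which binds the same ligand, differed by 0.11 and 0.12. Of 24 measured genes of the TNF and TNF receptor superfamily, 4 were more than 1.3 above control at the high dose. Of all genes, 2.26% were. TNFSF14 was the 1 of the 24 that passed both thresholds. The median difference of the list from control was 0.46 at the high dose and 0.20 at the low dose.

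IFI6, an interferon-induced mitochondrial protein, had 111, 130 and 240 and was the 1 gene of 20 measured interferon-stimulated genes that passed both thresholds. The list had a median difference of 0.68 from control and 0.58 from the low dose at the high dose, beside 0.05 and 0.06 over all genes. Against control, 17 of 20 genes were above 0, and the share of all genes above 0 is not given here. UBA7, the activating enzyme for the ubiquitin-like protein ISG15, had 128, 186 and 333. ISG15 itself had 8951, 14444 and 15734, which is 1.06 above control and 0.44 above the low dose. UBE2L6, the conjugating enzyme of the same pathway, was 0.32 above control. CD68, a lysosomal glycoprotein of macrophages, had 173, 239 and 409. The other 3 genes were DEFB124, a beta-defensin (64.95, 74.6 and 169), DNASE1L3, a secreted DNase (40.5, 52.7 and 96.6), and MFGE8, which bridges dying cells to phagocytes (30.4, 35.9 and 63.1). Of 5 blood cell markers on the arrays, 4 were well above background on each array, with a summed signal of 1626, 2056 and 2847. CD14, a receptor of monocytes, had 521, 1184 and 1847, and the hemoglobin gene HBB was below background on all arrays. Of 4 endothelial markers, 2, 2 and 3 were well above background, with summed signals of 536, 370 and 361. Their part in the result was not tested.

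Genes of cilia, flagella and motors made up 6 genes, with control signals of 33.2 to 52.0. CCDC114 (now ODAD1), which docks dynein arms in cilia, had 52.0, 94.5 and 187. QRICH2, a protein of the sperm flagellum, had 33.2, 47.6 and 103, and DYDC2 had 34.7, 64.2 and 108. TSNAXIP1 (38.6, 52.6 and 102) and TTC18 (34.1, 39.6 and 89.8) followed the same order. DNHD1, which carries a dynein heavy chain domain, had 49.6, 77.8 and 142. Another DNHD1 probe gave a different pattern, and both are shown, the kept probe on the first line.
DNHD1, chr11:6549684-6549743, plus strand: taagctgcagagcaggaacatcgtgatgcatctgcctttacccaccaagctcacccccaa
DNHD1, chr11:6526016-6526075, plus strand: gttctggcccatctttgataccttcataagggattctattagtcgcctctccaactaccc
The other probe had signals of 72.9, 85.5 and 85.1, a difference of 0.47 from control and 0.31 from the low dose. The kept probe thus passed both thresholds and the other passed neither.

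Genes best known from muscle and nerve were 4. NAV3, a microtubule-binding neuron navigator, had 30.7, 27.0 and 162, and its difference of 2.90 (SD 0.37) was the largest from the low dose. Its other probe was below background on all arrays, with 5.10, 5.52 and 5.55. The values of NAV3 therefore rest on 1 spot per array. The kept probe had 1 spot per array in 62 of the genes described here, NAV3 among them. In the other 3, HSPA1A, CPT1A and PLA2G16, it had 10 spots. MYH7B, a myosin heavy chain, had 26.6, 42.5 and 103, MYOM1, the myomesin of the sarcomere's M-band, had 26.7, 52.1 and 85.4, and CHRNE, a subunit of the muscle acetylcholine receptor, had 27.1, 33.7 and 61.7. Of 4 neuron markers, 2, 2 and 3 were well above background, with summed signals of 120, 126 and 153. RBFOX3 had 4.69, 8.25 and 36.9, whereas SYT1 had 66.9, 79.5 and 57.5. Their part in the result was not tested.

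In the extracellular matrix and adhesion group, COL20A1, a collagen, had 21.6, 30.4 and 124, with differences of 2.77 (SD 0.42) from control and 2.34 from the low dose. Its other probe of the same accession was well above background on the high dose array alone, with 4.32, 14.7 and 63.2. TRO, the adhesion protein trophinin, had 641, 899 and 1453. Its difference from the low dose, 1.005 (SD 0.07), lay at the threshold. PAPLN, the matrix protein papilin, had 25.6, 29.6 and 63.4, and VWA2, a secreted protein with von Willebrand A domains, had 41.5, 42.3 and 98.5.

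Membrane proteins and their helpers, together with a hormone, made up 7 genes. PKD2L1, a cation channel of the polycystin family, had 38.5, 64.6 and 133, and its other probe, with 24.1, 28.01 and 50.3, also passed both thresholds. ZDHHC11, a palmitoyltransferase, had 486, 535 and 1109, with another probe at 202, 212 and 441. In ZDHHC11 the low dose was 0.08 above control with the former probe and 0.00 with the latter, so both placed the difference between the 2 doses. CLIC3, an intracellular chloride channel protein, had 71.4, 79.8 and 203, and TMC4 had 57.0, 58.1 and 126. ENTPD8, a nucleotidase of the cell surface, had 43.1, 64.1 and 130. MRAP, an accessory protein of melanocortin receptors, had 34.2, 40.2 and 81.4, and INSL3, an insulin-like hormone of the testis, had 68.2, 89.6 and 145.

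Signaling and membrane-binding proteins made up 7 genes, and 5 of them passed both thresholds under all 7 scalings described below. GEFT (now ARHGEF25), a guanine nucleotide exchange factor, had 65.6, 39.6 and 155. As in TNFSF14, its low dose lay below control, by 0.79 (SD 0.25), and its high dose 1.49 above (SD 0.15). The other GEFT probe was well above background on the high dose array alone, with 15.0, 11.8 and 28.8. C17orf28 (now HID1) had 57.6, 127 and 275, a difference of 2.51 (SD 0.16) from control and 1.08 already at the low dose. FAM116B (now DENND6B), a DENN domain protein, had 51.4, 48.6 and 132. FAM65C (now RIPOR3) had 54.4, 92.4 and 170. RHPN1 had 37.4, 46.9 and 108, CPNE5, a copine that binds membranes with calcium, had 36.8, 43.5 and 110, and PRKCDBP (now CAVIN3), a coat protein of caveolae, had 27.7, 40.4 and 83.7.

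HSPA1A, the stress-inducible chaperone Hsp70, had signals of 52.8, 171 and 277. It differed from control by 1.63 at 10 μM and 2.64 at 100 μM, and its difference between the doses, 1.01, lay just inside the threshold of 1. Its probe was spotted 10 times, so the spot SD of that difference was 0.03, and the SD between its own spots ran from 0.08 to 0.16 over the arrays. HSPA1B, its near-identical neighbor, had 1168, 2276 and 2818, which is 1.52 above control but 0.62 above the low dose. Cross-hybridization between the 2 genes was not tested. Of 14 measured heat shock and chaperone genes, these 2 were more than 1.3 above control, beside 2.26% of all genes. The list had median differences of 0.25 from control and 0.09 from the low dose. HSPA8, the constitutive relative, differed from control by -0.14, and DNAJB1, a cochaperone of Hsp70, by 0.62.

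The promoter of HSPA1A is shown because its gene belongs to a family driven by heat shock factor. The 250 bases before its start site are from RefSeq on GRCh38.p14, with the heat shock element (GAANNTTC, which reads the same on both strands) in capitals.
HSPA1A, chr6:31815293-31815542, plus strand: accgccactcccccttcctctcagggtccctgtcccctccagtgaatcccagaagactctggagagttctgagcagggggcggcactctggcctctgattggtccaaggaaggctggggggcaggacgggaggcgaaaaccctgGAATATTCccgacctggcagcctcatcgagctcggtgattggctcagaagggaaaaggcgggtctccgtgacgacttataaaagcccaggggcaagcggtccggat
The element begins 106 bases before the start site, and 6.77% of 35116 promoters in the table, each from 250 bases before to 50 after the start, hold it. A match is a description of these letters and not a bound site. The table held a promoter for 45 of the 65 genes (69.2%), too few to compare the genes with other promoters.

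HIST2H2AA4 (now H2AC19), a replication-type histone H2A gene, had 355, 411 and 1182, with differences of 1.98 (SD 0.08) from control and 1.84 from the low dose. A near-identical copy lies beside it, so the copy measured is uncertain. HIST2H2AC, another H2A gene of that cluster, went the other way, with 4536, 4570 and 1713, a difference of -1.16 at the high dose from control. TSPYL2, a nucleosome assembly protein relative, had 67.8, 105 and 178. The proteases were NPEPL1, an aminopeptidase relative, with 1615, 2884 and 5202, and CAPN12, a calpain, with 61.9, 94.3 and 177. NPEPL1 passed both thresholds with another probe too, at 617, 998 and 1739. The last 5 genes were KIAA0913 (now ZSWIM8), an adaptor of a ubiquitin ligase, with 3258, 4571 and 7877, POTEB with 20.9, 23.9 and 95.9, C1orf228 (now ARMH1) with 26.5, 31.3 and 88.1, BCAS1 with 25.1, 37.7 and 71.2, and ADPRHL1 with 31.2, 48.9 and 79.9. POTEB belongs to a family of near-identical copies, so which of them was measured is uncertain.

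**Figure D3:**
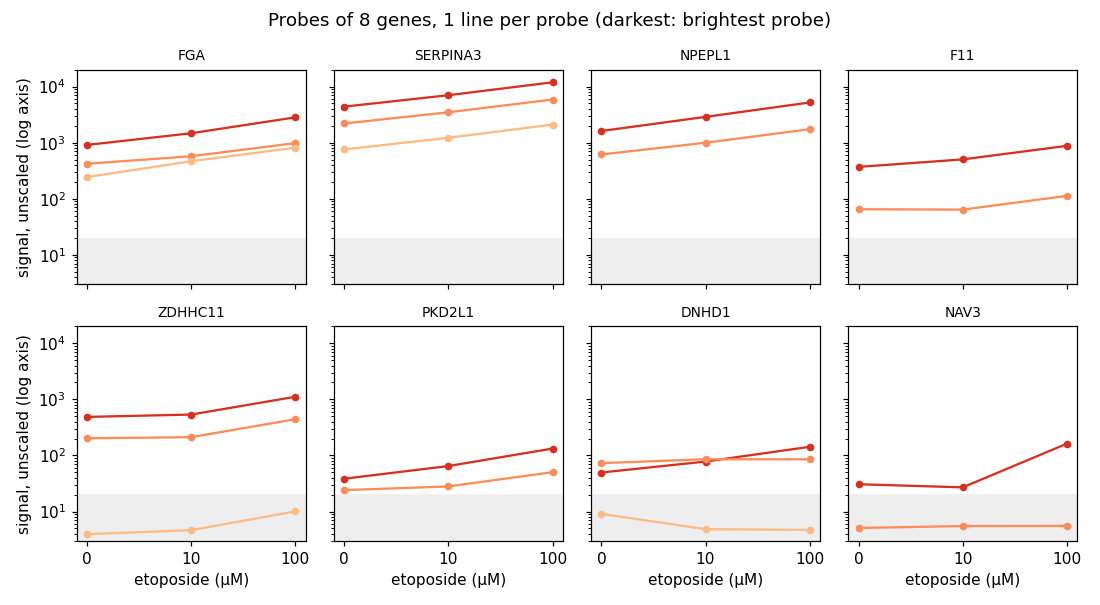
Unscaled signal (log axis, scanner units) of every probe with an mRNA accession of 8 genes at 0, 10 and 100 μM etoposide, evenly spaced on the x axis, with the kept probe darkest and signals below 19.5, the lowest well above background on the control array, in gray. The SERPINA3 probes differ from control at the high dose by 1.67 to 1.72 and the FGA probes by 1.47 to 1.99, while a DNHD1 probe stays at 72.9 to 85.5 and a NAV3 probe at 5.10 to 5.55.

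Other probes were not used to choose the genes, but they measured the same RNA on the same arrays. Of the 65 genes, 44 had 1 probe and 21 had others, 26 in all. Of these 26, 9 probes of 7 genes were well above background on all arrays, and 7 of the 9 passed both thresholds. They belonged to FGA, NPEPL1, PKD2L1, SERPINA3 and ZDHHC11. The other 2 were those of F11 and DNHD1. The remaining 17 probes were below background on at least 1 array, 13 of them on all arrays.

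Most of the genes had dim signals in control cells. The rule set no limit on the control signal beyond the filter on background, but that signal entered the difference from control that chose the genes. The control signal was under 100 in 50 of the 65 genes (76.9%), beside 15.7% of all genes, and at least 300 in 10. The differences of all genes also depended on signal. Among 737 genes with a mean signal under 50, the median difference of the high dose from control was 0.39, and 16 of them (2.17%) belonged to the 65. Among 1130 genes between 50 and 100 it was 0.23, with 26 (2.30%), and among 1458 genes over 5000 it was -0.01, with 1 (0.0686%). The low dose had no such slope against control, as the plot by signal shows. When the median of each signal range was subtracted, a step added with the values in view, 48 of the 65 genes stayed above 1.3 against control. Both thresholds were passed by 33, and the median difference from control over all 65 was 1.52. The part of this slope in the choice of the dim genes was not tested beyond that step.

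**Figure D4:**
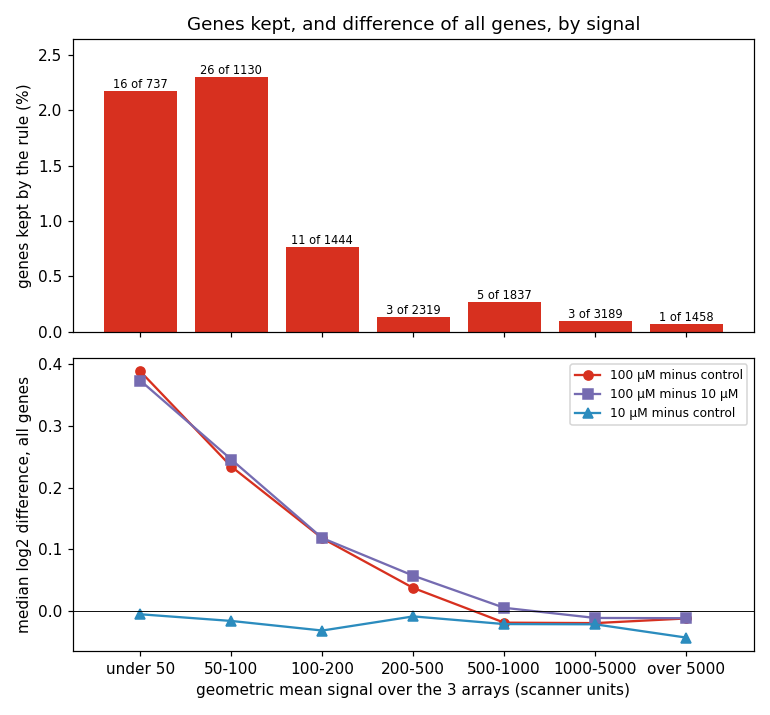
The upper panel gives the percent of genes kept in each range of mean signal over the 3 arrays, which was 2.17% to 2.30% below 100 and 0.0686% above 5000. The lower panel gives the median log2 difference of all genes in the same ranges, which falls from 0.39 to -0.01 for the high dose against control (circles) and stays near 0 for the low dose against control (triangles).

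The probes of the 65 genes were also richer in G and C. Their median GC content was 45%, beside 43.3% over all genes, and 46.2% of them exceeded 45%, beside 26.9%. The median difference of all genes from control at the high dose was -0.07 for probes of up to 35% GC and 0.25 for those of 45% to 55%, a range that held 28 of the 65 genes. The genes were shorter than the rest. The median span of 63 genes matched to RefSeq was 17983 bases, beside 27330 over 11831 matched genes, and 4 (6.35%) exceeded 100 kb, beside 15.8%. NAV3 had the longest span, 641149 bases. Chromosome 10 held 7 of the genes (10.8%, beside 3.97% of all genes) and chromosome 20 held 6 (9.23%, beside 2.93%), and none lay on chromosome 2, which held 783 of the genes that could have been chosen. The part of GC content, length or position in the result was not tested.

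Of 25 lists of genes from pathways of stress, cell cycle, signaling and development, 22 held none of the 65 genes. The 65 are 0.537% of all genes, so to hold none of them is close to the background for lists this short and is no result about the 65. None of 27 measured p53 targets passed both thresholds. Their median difference from control was 1.65 at 10 μM and 1.18 at 100 μM. At the high dose, 12 of the 27 were more than 1.3 above control, beside 2.26% of all genes. None was more than 1 above the low dose, beside 2.13%. CDKN1A, the p53 target that encodes the cell cycle inhibitor p21, had 170, 1407 and 1010. After scaling it differed from control by 2.99 at 10 μM and 2.82 at 100 μM, and the high dose from the low dose by -0.17. None of 30 measured apoptosis genes passed either threshold, beside 2.26% and 2.13% of all genes, and their median difference from control was 0.11. Cell cycle genes had lower signals at the high dose than in the control, with a median difference of -2.77 for 21 G2/M genes and -1.67 for 17 G1/S genes. NF-kappaB targets (13 measured, median 0.02) and ATF4 targets (16 measured, median -1.20) also held none of the 65.

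The genes just inside and outside the thresholds had nearly equal values. Against control, MFGE8 (1.3), INSL3 (1.33) and MOGAT3 (1.34) were the nearest inside, and PITPNM1 (1.28), TMEM63C (1.27) and PRRG2 (1.26) the nearest outside. Against the low dose, INSL3 (1.002), TRO (1.005) and HSPA1A (1.01) were the nearest inside, and REC8 (0.998), POMZP3 (0.99) and MST1 (0.98) the nearest outside. The 5 other genes whose 2 differences over the 3 arrays lay closest to the median of the 65 were REC8, POMZP3, VGF, AREG and AGBL2, at distances of 0.27 to 0.37 on the log2 scale. All 5 fell short of the threshold between doses.

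Another scaling of the arrays changed which genes passed. With spike-in controls as the reference 33 of the 65 genes passed, and with median scaling or none 24 did. Under all 7 scalings 23 passed, 21 of which had control signals under 100. The other 2 were BDH1 and HIST2H2AA4, the only ones of the 10 genes with control signals of at least 300. With normexp background correction, which raises dim values, 10 genes passed, which were COL20A1, NAV3, ADAM8, HIST2H2AA4, BDH1, NPEPL1, FGA, KIAA0913, ITIH3 and F11. The first 5 of these passed under all scalings as well. SERPINA3, LYVE1 and HSPA1A did not pass with normexp.

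**Figure D5:**
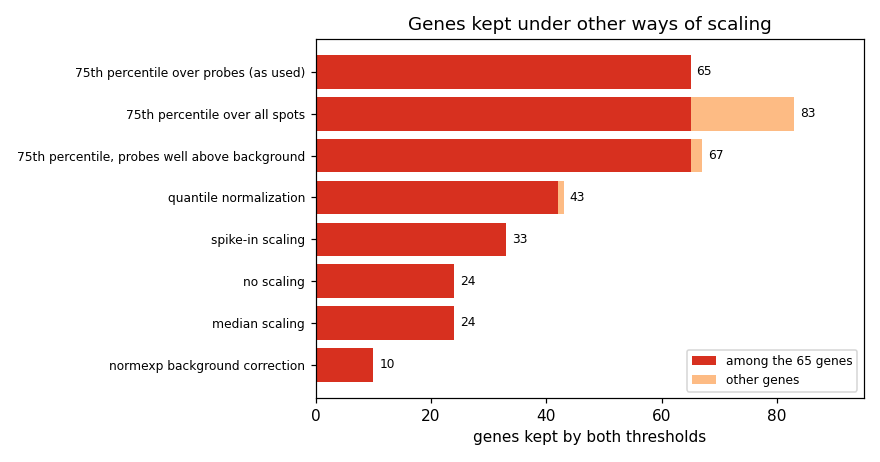
Bars give the number of genes past both thresholds (x axis) under 8 ways of scaling or background correction, split into those among the 65 (red) and others (orange). The number runs from 83 with the percentile over all spots to 10 with normexp background correction.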

How the data were processed

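RNA of HepG2 cells was measured on 1-color Agilent arrays, 1 per condition (control, 10 μM and 100 μM etoposide), all on 1 slide. The authors deposited the scanner output of Agilent Feature Extraction 10.7.3.1, in which the intensity of each spot is already background-subtracted and detrended within its array but not scaled to the other arrays, together with flags for spots well above background. The deposited series table holds the same intensity for all 44495 spots of each array. Per the file headers, probe positions are on hg18. Scaling raised all values of the high dose relative to the others, and plain subtraction of background makes ratios of dim probes sensitive to small offsets.

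From the deposited intensity, log2 values were averaged over the spots of a probe (34127 probes, 27274 gene names), set relative to the array's 75th percentile over probes, and filtered with the rule given in the report. The members, gene lists and functional groups were chosen with earlier results of these data known. Genes named with their signals were the 65 that the rule kept, the nearest 3 outside each threshold, the 5 most alike in pattern, and partners picked after their values were seen. The lists named are those that hold a member and 6 others, on p53 targets, apoptosis, G1/S, G2/M, NF-kappaB and ATF4. Spot noise came from the 50 probes nearest in signal among those spotted 10 times. With 1 array per condition no test was made. Steps were tested on simulated data. Current symbols, gene spans and promoters came from RefSeq tables on GRCh38.p14. Alternatives were other scalings, normexp background correction (limma 3.58.1, offset 50), filters, thresholds and probe choices. Python 3.11.15, pandas 2.3.3, numpy 2.4.6 and R 4.3.3 were used.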

Additional observations from a re-analysis of the deposited data

Results flagged for a closer look

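In 3 of the 65 genes the doses lay on opposite sides of the control by more than 2 SD of spot noise. The share of all genes that did so is not given here, and with 1 array per condition the difference was not tested. BDH1 differed from control by -0.19 at 10 μM and 1.92 at 100 μM. TNFSF14 differed by -0.83 and 1.5. GEFT differed by -0.79 and 1.49. The low dose value stayed below control in all 3 under every alternative scaling and with normexp background correction, between -0.21 and -0.13 for BDH1, between -0.85 and -0.38 for TNFSF14 and between -0.81 and -0.31 for GEFT. It was within 2 SD of control for BDH1 without scaling (-0.13) and with spike-in scaling (-0.14), and for TNFSF14 (-0.38) and GEFT (-0.31) with normexp.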

How the results depend on the processing

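No paired analysis was possible because there was a single array for each dose. Of 65 genes, 24 passed without scaling and 24 with median scaling, 43 genes with quantile normalization (42 of the 65), 33 with spike-in scaling and 10 with normexp background correction. These scalings moved the median of all genes at the high dose against control from 0.05 to -0.20 (none), -0.24 (median) and -0.12 (spike-ins). Each of these scalings shifts all genes of an array alike, so relative to that median the 65 have the same median, 1.61, by construction. Without a filter on background 754 genes passed, and 156 when a signal well above background was asked of the high dose array alone. Both settings widened the set of genes that could be chosen. Of 651 genes well above background at the high dose but not on both other arrays, 91 (14.0%) passed. These genes were picked for a signal at the high dose that fell short on another array. Their share therefore cannot be set against the 0.537% under the rule. With both thresholds at 1, 109 passed, and 11 at 3-fold. With the median of the signal range subtracted, an alternative chosen after seeing the data, 33 passed, all of them among the 65. The median difference from control, 1.65, became 1.40 without scaling, 1.36 with median scaling and 1.09 with normexp. That from the low dose, 1.27, became 0.96, 0.9998, 1.04 with spike-ins and 0.88 with normexp. The count of genes more than 1 above control at the low dose, 4, became 1 with normexp, whose offset compresses differences of dim probes. Of 1058 differences of the high dose for the 65 genes under alternatives, other probes among them, 463 moved by at least 1 SD of spot noise. That is a smaller margin than the 2 SD used elsewhere. A scaling that shifts all genes alike is counted as a move only where the spot SD of the gene is small enough. Low dose values below control turned positive for NAV3 and FAM116B with normexp, and for VWA2 and TMC4 without scaling and with spike-ins, for VWA2 also with normexp. Spot noise is larger for dim signals, and it does not cover cultures.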

Other observations

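The filter on background leaves out genes that came above background at the high dose alone. Of genes with an mRNA accession, 651 were well above background on the high dose array but not on both others. Their dim signals were raised to the floor of the array, which is the lowest signal called well above background there, so that their differences are lower bounds. Past both thresholds lay 91 of them (14.0%), a share that cannot be set against that of the rule, because of how the 651 were picked. None of the 91 was in the gene lists. The share of the 651 in those lists is not given here, so this is no result about the 91. With those genes counted in, 156 genes met the thresholds.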
